A study of Mus musculus with 25 samples.

Results

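Wide H3K27me3 peaks were examined in regenerating mouse myofibers. A wide peak is a row of an H3K27me3 peak list on chromosomes 1 to 19 that spans 3000 bp or more, whatever feature class it carries. Of 30979 autosomal H3K27me3 peaks in 12 lists, 254 (0.820%) were wide. Wild-type lists held 65 of them, mfn2-/- lists 47, vhl-/- lists 137 and HIF1dPA lists 5. The 24 lists of the series, with H3K9me3 included, hold 55242 peaks in all. Because members were chosen by the width that the lists give, their number, share and width are described and not tested. The members just inside the limit were 3003 bp at Gm3764, 3018 bp at Neurog2 and 3021 bp at Sim1, and the peaks just outside it were 2998 bp at C130071C03Rik, 2996 bp at Shox2 and 2994 bp at Gata6os.

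The lists come from chromatin immunoprecipitation sequencing (ChIP-seq) of tibialis anterior myofibers at 14 days post injury, with 3 libraries for each of 4 genotypes. All mice carried Pax7-Cre(ERT2), a tamoxifen-dependent recombinase active in muscle stem cells, and mito-Dendra2, a mitochondrial reporter that marks the progeny of those cells. Tamoxifen was injected at 75 mg/kg once daily for 5 days, 50 µL of 1.2% BaCl2 was injected into the muscle 2 days after the last dose, and Dendra2+ myofibers were dissected. Wild-type mice carried no further allele named in the labels. In mfn2-/- mice the driver removed mitofusin 2, a protein that fuses mitochondria. In vhl-/- mice it removed VHL, the part of an E3 ligase that recognizes HIF1α for degradation. HIF1dPA mice expressed a HIF1α whose prolines were changed to alanine so that VHL does not bind it. Alleles recombine only where the driver was active, so nuclei of other cells left in a dissected myofiber keep their own alleles. The study describes the libraries of a genotype as biological replicates from separate mice, while the labels give only a replicate number. Sequencing depth is not given in the sources used here, and peak numbers are numbers of peaks called.

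H3K27me3, a trimethyl mark on a lysine of the histone H3 tail, is written by a Polycomb repressive complex and is found at silent genes. In differentiated tissues its broadest domains are known to lie over CpG-rich start sites of genes for developmental transcription factors of other lineages, such as homeobox genes. The adult muscle genes that a myofiber transcribes are not usual targets of the mark, and none of 18 myofiber markers (Acta1, Ckm, Ttn and others) had an H3K27me3 peak of any width in any of the 12 lists.

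RefSeq promoter windows (GRCm38.p6, the assembly also called mm10, the build named for these lists) show sequence at gene starts, not across the wide regions. Of the 126 wide regions, formed by merging overlapping wide peaks, 34 hold such a window. The 250 bases before the start are printed 5′ to 3′ on the strand of the gene, with each CpG dinucleotide (CG, which reads the same on both strands) in capitals. The first 5 windows lie wholly inside a wide region and were chosen because the results below turn on those genes. The last 2, of Myh8 and Coil, belong to the only genes that the authors assigned a wide peak in a HIF1dPA list, and lie outside their wide regions.
Igf2bp3 (chr6:49214955-49215204, minus strand): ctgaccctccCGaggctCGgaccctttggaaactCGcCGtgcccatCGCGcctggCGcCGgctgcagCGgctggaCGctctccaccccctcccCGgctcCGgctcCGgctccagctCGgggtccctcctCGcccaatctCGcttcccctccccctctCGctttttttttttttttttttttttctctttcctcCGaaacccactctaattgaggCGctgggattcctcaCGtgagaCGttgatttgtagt
Nkx2-4 (chr2:147085346-147085595, minus strand): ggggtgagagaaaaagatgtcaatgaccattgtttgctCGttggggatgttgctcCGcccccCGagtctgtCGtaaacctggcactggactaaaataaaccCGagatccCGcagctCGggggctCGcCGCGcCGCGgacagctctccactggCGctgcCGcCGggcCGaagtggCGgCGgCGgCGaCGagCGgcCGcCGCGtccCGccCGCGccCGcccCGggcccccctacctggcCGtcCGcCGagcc
Sim1 (chr10:50895401-50895650, plus strand): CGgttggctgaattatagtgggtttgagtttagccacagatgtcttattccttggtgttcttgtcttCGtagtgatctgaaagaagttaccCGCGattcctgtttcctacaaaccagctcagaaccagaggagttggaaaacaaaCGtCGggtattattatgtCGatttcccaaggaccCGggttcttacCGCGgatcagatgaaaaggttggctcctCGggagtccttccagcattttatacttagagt
Evx2 (chr2:74659558-74659807, minus strand): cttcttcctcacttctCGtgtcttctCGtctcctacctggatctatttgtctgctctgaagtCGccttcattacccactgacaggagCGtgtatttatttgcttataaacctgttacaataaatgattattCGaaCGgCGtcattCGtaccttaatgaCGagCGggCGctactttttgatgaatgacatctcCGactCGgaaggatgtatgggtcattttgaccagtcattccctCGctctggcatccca
Hmga2 (chr10:120476470-120476719, minus strand): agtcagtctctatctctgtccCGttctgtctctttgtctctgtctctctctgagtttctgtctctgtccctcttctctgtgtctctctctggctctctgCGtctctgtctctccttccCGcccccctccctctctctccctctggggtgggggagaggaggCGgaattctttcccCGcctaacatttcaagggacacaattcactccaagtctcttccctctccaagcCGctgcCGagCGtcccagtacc
Myh8 (chr11:67276874-67277123, plus strand): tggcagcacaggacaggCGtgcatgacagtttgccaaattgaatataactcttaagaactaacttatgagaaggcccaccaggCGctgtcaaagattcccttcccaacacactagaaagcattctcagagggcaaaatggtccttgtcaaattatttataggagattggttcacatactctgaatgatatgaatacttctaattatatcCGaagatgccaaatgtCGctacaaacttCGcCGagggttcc
Coil (chr11:88973685-88973934, plus strand): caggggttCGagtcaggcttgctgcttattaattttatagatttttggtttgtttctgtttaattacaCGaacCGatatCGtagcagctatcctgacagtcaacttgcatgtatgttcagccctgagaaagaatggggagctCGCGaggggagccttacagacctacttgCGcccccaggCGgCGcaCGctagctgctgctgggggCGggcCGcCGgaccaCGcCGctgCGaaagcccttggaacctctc

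These stretches hold 21 CpG at Igf2bp3, 33 at Nkx2-4, 11 at Sim1, 14 at Evx2, 8 at Hmga2, 6 at Myh8 and 16 at Coil. The Lin28b stretch, which is not printed and lies outside its wide regions, holds 6. The median over all 31396 autosomal windows was 6 in the same 250 bases. Over whole windows of 300 bases (250 before the start and 50 after), the 50 windows that touched a wide peak had a median of 19.5 CpG. The 1270 windows that touched only narrower peaks had a median of 15 and the 30076 that touched no peak a median of 7. A window with 10 or more CpG was found in 78.0% of the first kind, 69.4% of the second and 42.8% of the third, against 44.0% of all windows. The window table is not complete, and none of its windows lies on chromosome 18.

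Wide peaks were most numerous in vhl-/- lists and nearly absent from HIF1dPA lists. The wild-type lists held 31, 16 and 18 wide peaks in replicates 1 to 3 (21.7 ± 8.14, SD, n = 3). The mfn2-/- lists held 17, 11 and 19 (15.7 ± 4.16, n = 3), the vhl-/- lists 47, 55 and 35 (45.7 ± 10.1, n = 3) and the HIF1dPA lists 2, 1 and 2 (1.67 ± 0.577, n = 3). Every vhl-/- list had more wide peaks than any wild-type list, every HIF1dPA list had fewer, and the mfn2-/- and wild-type lists overlapped. The ratio of means to wild-type was 0.723 for mfn2-/-, 2.11 for vhl-/- and 0.0769 for HIF1dPA.

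List length differed too, with 3427 to 3763 autosomal peaks in wild-type, 2342 to 2574 for mfn2-/-, 3626 to 4023 for vhl-/- and only 474 to 496 for HIF1dPA lists. As a share of the autosomal list, wide peaks made up 0.824%, 0.466% and 0.525% in wild-type, 0.692%, 0.470% and 0.738% for mfn2-/-, 1.21%, 1.37% and 0.965% in vhl-/- and 0.422%, 0.203% and 0.403% for HIF1dPA lists. The vhl-/- mean stood 0.577 percentage points above wild-type, the mfn2-/- mean 0.0284 points above it and the HIF1dPA mean -0.262 points from it. The shares of mfn2-/- and wild-type overlapped, while the vhl-/- shares lay above and the HIF1dPA shares below every wild-type value. The order of HIF1dPA turned with the score, since among peaks with a score of at least 100 its mean share stood 3.23 points above wild-type, and that of mfn2-/- -0.135 points from it. The HIF1dPA share then rests on the Myh8 peak of each list and the Coil peak of replicate 3. The ratio of HIF1dPA to wild-type in number of wide peaks was still 0.0625 there. Wide peaks held 2.53% ± 0.650 of the base pairs under autosomal peaks in wild-type, 2.73% ± 0.694 for mfn2-/-, 4.68% ± 0.723 for vhl-/- and 1.67% ± 0.671 for HIF1dPA lists (SD, n = 3 each).

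**Figure D1:**
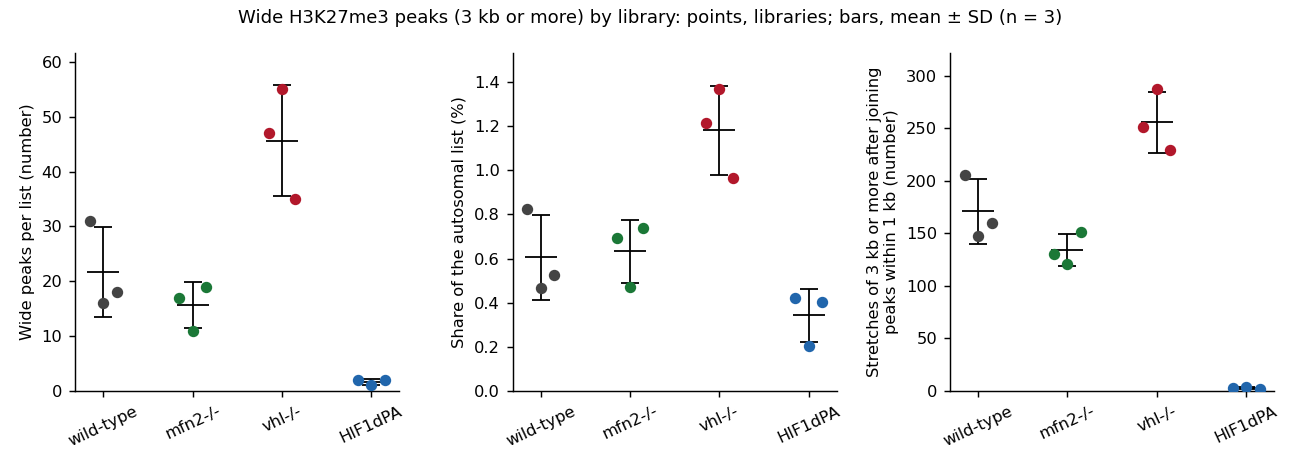
Number of wide peaks, their share of the autosomal list in percent and the number of stretches of 3 kb or more once peaks within 1 kb of each other are joined, per library. Points are libraries and bars the mean ± SD of 3 libraries: vhl-/- points lie highest in all 3 panels, and HIF1dPA has 1 or 2 wide peaks per list.

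Most members were little longer than the limit. Of the 254, 178 (70.1%) were under 4 kb, 76 reached 4 kb and 23 reached 5 kb. The median width of a list's wide peaks was 3507 ± 81.6 bp in wild-type, 3483 ± 174 bp for mfn2-/-, 3595 ± 70.1 bp in vhl-/- and 3274 ± 178 bp for HIF1dPA (SD, n = 3 each). The widest peak of a genotype was 7040 bp in wild-type (replicate 3), at Otx1, a homeobox gene of the forebrain, and 6506 bp in mfn2-/- (replicate 3), at Plag1, a zinc finger regulator of fetal growth. In vhl-/- it was 10414 bp (replicate 1), at Igf2bp3, which encodes an oncofetal RNA-binding protein. In HIF1dPA it was 3549 bp (replicate 1), in a region assigned to Coil, the gene of the Cajal body protein coilin. Wild-type and mfn2-/- lists had nearly the same share of peaks past each width up to 3 kb (3.45% and 3.07% at 2 kb, 0.612% and 0.638% at 3 kb, 3 lists pooled). The vhl-/- share was 5.27% at 2 kb and 1.19% at 3 kb, and the HIF1dPA share 0.820% and 0.342%.

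**Figure D2:**
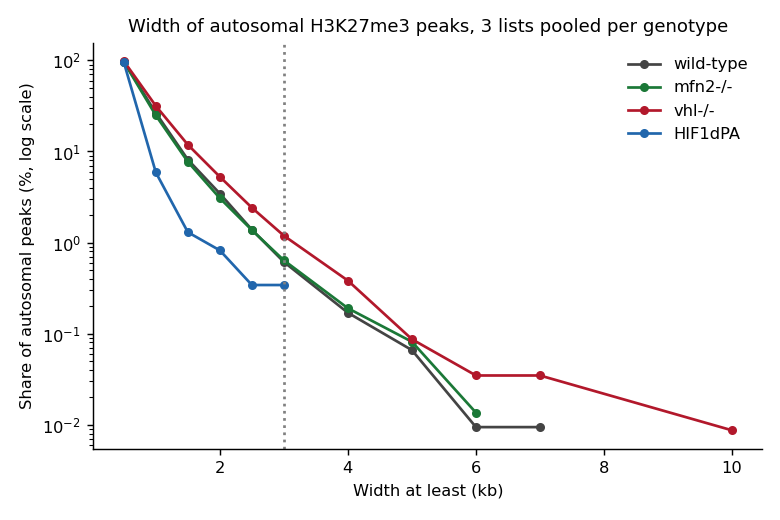
Share of autosomal H3K27me3 peaks (percent, log axis) that are at least as wide as the value on the horizontal axis (kb), with the 3 lists of a genotype pooled. The dotted line marks 3 kb, where vhl-/- stands at 1.19%, wild-type at 0.612%, mfn2-/- at 0.638% and HIF1dPA at 0.342%.

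The peak caller often divided the same stretch of chromatin, and this bears on the counts of wide peaks. A wild-type wide peak was overlapped in 95.4% of look-ups in the other wild-type replicates, but by a peak that was itself wide in 29.2%. In 59.2% of those look-ups it met 2 or more pieces, and the median of the longest piece was 2238 bp. The same held for mfn2-/- wide peaks (93.6% overlapped, 25.5% by a wide peak) and vhl-/- wide peaks (96.7% and 33.6%). The 5 HIF1dPA wide peaks, at Myh8 and Coil, were divided less, with 10 of 10 look-ups overlapped, 8 by a wide peak and 2 meeting 2 or more pieces. After peaks within 1 kb of each other were joined, stretches of 3 kb or more numbered 206, 147 and 160 in wild-type, 130, 121 and 151 for mfn2-/-, 251, 287 and 229 in vhl-/- and 3, 4 and 2 for HIF1dPA lists. Joining kept every vhl-/- list above every wild-type list, at a ratio of means of 1.50 in place of 2.11.

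Midpoints of wide peaks lay inside a peak of a same-genotype replicate far more often than midpoints of narrower peaks did. To remove the length of the peak itself, only its midpoint was looked up in the other 2 lists of its genotype. This does not remove the length of the peaks met there, and longer peaks take in more midpoints. For wild-type wide peaks the longest piece met had a median of 2238 bp. The median width of all autosomal peaks of a wild-type list averaged 758 bp. Wide-peak midpoints lay inside a peak in 72.6%, 84.4% and 69.4% of look-ups for the wild-type replicates, 70.6%, 72.7% and 68.4% for mfn2-/-, 74.5%, 71.8% and 77.1% for vhl-/- and 100% for each HIF1dPA replicate. Midpoints of narrower peaks did so in 20.4% to 23.3% for wild-type, 22.6% to 26.7% for mfn2-/-, 24.8% to 27.8% for vhl-/- and 4.98% to 5.87% for HIF1dPA. The within-library difference averaged 60.6 percentage points (median 48.5, lowest 45.8, highest 95.0) and was positive in 12 of 12 libraries (exact two-sided sign-flip permutation p = 0.000488, the smallest that 12 libraries allow, adjusted p = 0.00122 over 5 tests). Wide peaks were also among the strongest, the median wide peak of a list standing at the 96.0 to 100 percentile of its scores. Among peaks with a score of at least 100 the difference was 40.8 points (p = 0.000488 by the same exact test). The parts of score and of the length of the peaks met were not tested further, so the p-value does not measure shared position alone.

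**Figure D3:**
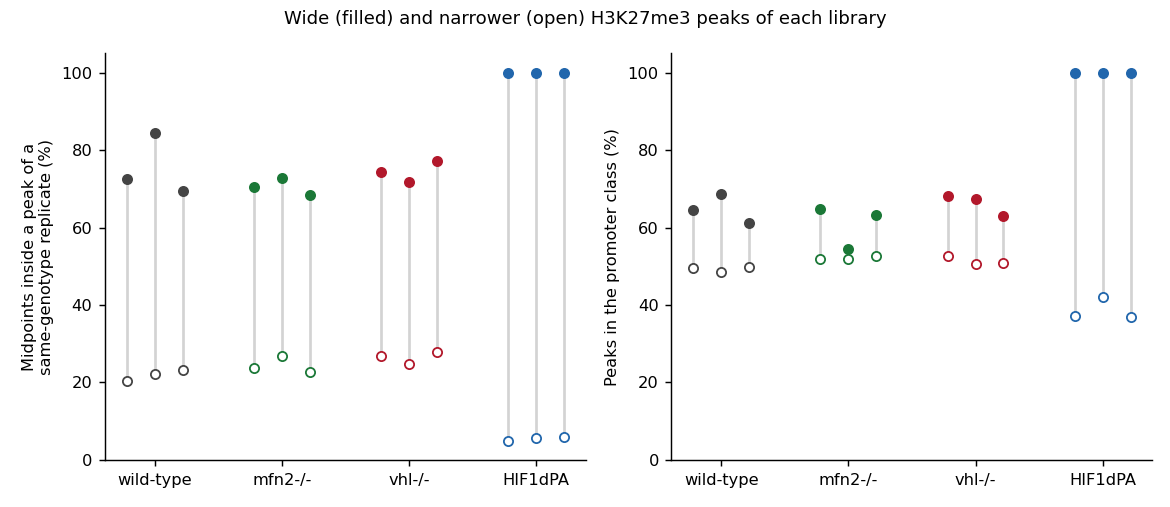
For each library, filled points give wide peaks and open points narrower peaks, joined by a line. The left panel is the percent of midpoints inside a peak of a same-genotype replicate, where filled points lie between 68.4% and 100% and open points between 4.98% and 27.8%, and the right panel is the percent in the promoter class, where filled points lie above open points in 12 of 12 libraries.

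Merged where they overlapped, the 254 wide peaks formed 126 wide regions, assigned by the authors to 111 genes. In 76 regions the peak was wide in 1 library and in 50 in 2 or more, with 19 regions wide in 4 or more lists and 3 in 8. A peak of any width was far more widespread. In 91 of the 126 regions all 9 wild-type, mfn2-/- and vhl-/- lists had a peak, and in 10 all 12 lists did. Of all 13095 merged autosomal regions, 69.6% had a peak in 1 list alone, but wide regions are longer and so more easily touched by a peak.

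Regions wide in vhl-/- lists alone numbered 58, of 95 wide in any vhl-/- list. Those wide in wild-type alone numbered 19 of 49, in mfn2-/- alone 9 of 36 and in HIF1dPA alone 0 of 2. Most passed 3 kb in 1 library only, 49 of the 58, 18 of the 19 and 9 of the 9. Most of the regions wide in 1 genotype alone were covered elsewhere by shorter peaks. Of the 58 vhl-/- regions, 47 were held by all 3 wild-type lists and 2 by none, and the median over regions of the longest wild-type peak was 2039 bp. Of the 19 wild-type regions, 14 had a peak in all 3 mfn2-/- lists and 16 in all 3 vhl-/- lists, with 0 in all 3 HIF1dPA lists. The single region wide in all 4 genotypes was the one assigned to Coil.

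The 3 regions at Igf2bp3, Gm26553 and Coil were wide in 8 lists each. Each region became a member through the lists in which it was wide, so an order of widths between genotypes within a region is a description and partly set by that choice. Widths given for a region are of its longest piece, so a low value can also stand for a stretch divided into more pieces. Igf2bp3 is described with 4 other genes of fetal growth, Igf2bp1, Lin28b, Hmga2 and Plag1, a group formed after the values were seen and given no test. Igf2bp3 (ENSMUSG00000029814, chr6:49213730-49229152), whose CpG-rich window is printed above, was wide in 8 lists. Its longest peak was 4588, 5452 and 5135 bp in the wild-type replicates, 5299, 1790 and 5958 bp in mfn2-/-, 10414, 4747 and 9226 bp in vhl-/- and 1664, 848 and 767 bp in HIF1dPA. The wild-type values lie close together, 1 mfn2-/- list fell below 3 kb, and all HIF1dPA values lie below all others. That mfn2-/- list held the region in 9 pieces covering 10459 bp. Peaks covered 12847, 10938 and 11671 bp of it in the wild-type lists. Plag1 (chr4:3930532-3937070) was wide in 6 lists, with longest peaks of 2256, 3293 and 3509 bp in wild-type, 2294, 1941 and 6506 bp in mfn2-/- and 3654, 4620 and 4940 bp in vhl-/-. One HIF1dPA list had a peak there, of 637 bp, and the vhl-/- values all exceed the wild-type values.

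Lin28b, which encodes an RNA-binding protein that blocks maturation of let-7, had 3 separate wide regions within 14638 bp (chr10:45471100-45485737), all wide in vhl-/- lists only. In the first of them (chr10:45471100-45476713) the longest peak was 1899, 2634 and 1911 bp in wild-type, 2054, 1291 and 2439 bp for mfn2-/-, 2558, 4872 and 3415 bp for vhl-/- and 576, 0 and 995 bp for HIF1dPA, where 0 stands for no peak. The vhl-/- and wild-type values overlap. Hmga2, a chromatin protein of embryonic growth, reached 3147 bp in wild-type replicate 1 and 3712 bp in mfn2-/- replicate 3, and its vhl-/- peaks were 1577, 2329 and 1412 bp. Igf2bp1, a paralog of Igf2bp3, was wide in wild-type replicate 3 (4379 bp) and vhl-/- replicate 2 (3157 bp). All 5 genes had a peak in every genotype, and a wide one was found for 4 of them in wild-type, 3 for mfn2-/-, 4 for vhl-/- and 0 for HIF1dPA.

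**Figure D4:**
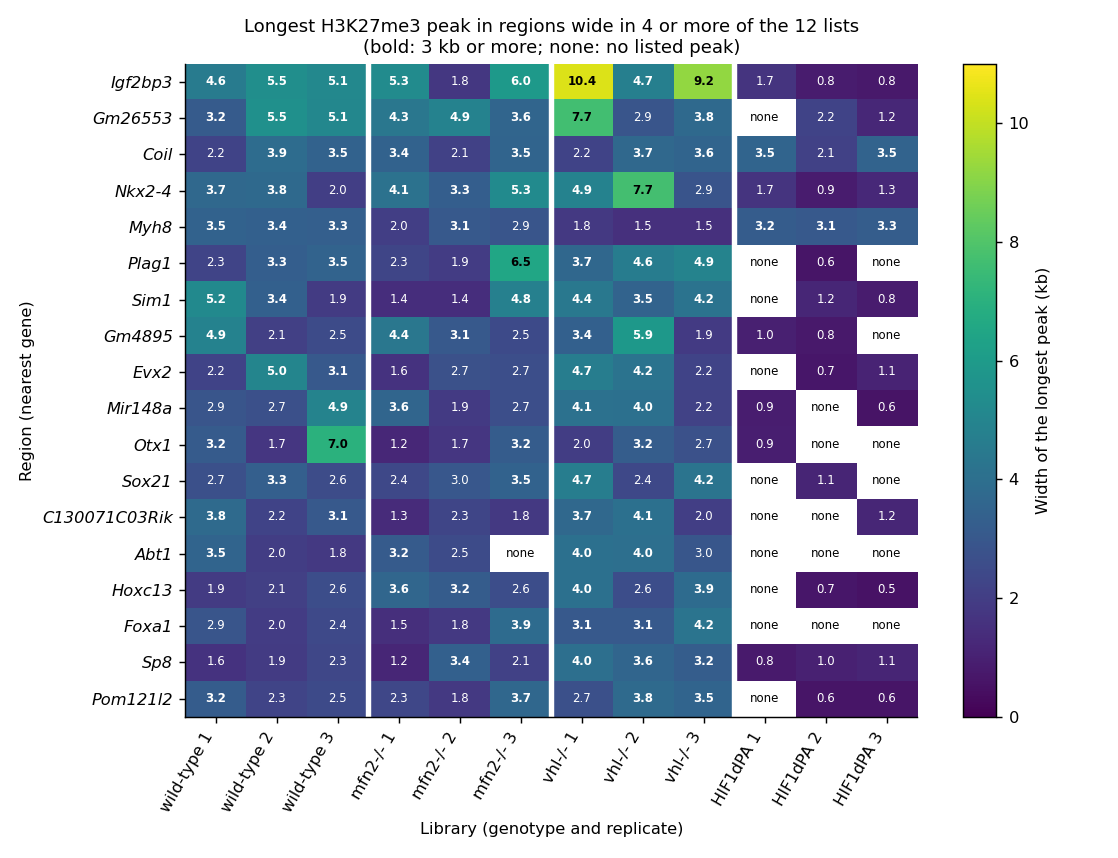
Width in kb of the longest H3K27me3 peak (colour and number) in 18 of the 19 regions that were wide in 4 or more of 12 lists (1 is not reported here), one column per library and one row per region. Rows are named by the gene the authors assigned, which need not be the nearest. Bold numbers are 3 kb or more, white cells hold no listed peak, and Myh8 is the row that is wide in all 3 HIF1dPA lists and in no vhl-/- list.

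Homeobox genes, which set cell identity in the embryo, formed the largest group. Of 88 homeobox genes outside the Hox and LIM families that had any autosomal peak, 21 had a wide one, in 10 genes for wild-type, 5 for mfn2-/-, 15 for vhl-/- and 0 for HIF1dPA. Of all 5470 genes assigned a peak, 111 (2.03%) had a wide one, 47 of them in wild-type lists, 35 for mfn2-/-, 84 in vhl-/- and 2 for HIF1dPA, so the homeobox genes followed the order of genotypes seen over all genes. Nkx2-4 (chr2:147085187-147093023), a homeobox gene of the hypothalamus and thyroid lineage, was wide in 7 lists. Its longest peaks were 3715, 3751 and 2031 bp in wild-type, 4129, 3283 and 5280 bp for mfn2-/-, 4871, 7701 and 2857 bp for vhl-/- and 1672, 855 and 1276 bp for HIF1dPA. The 3 genotypes other than HIF1dPA overlap. A neighbouring Nkx2-4 region (chr2:147079830-147084557) was wide in wild-type alone, with 4705, 4288 and 2302 bp against 2868, 2963 and 1821 bp in vhl-/-.

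Otx1 (chr11:21985694-21992733) ranged widely within a genotype, with 3178, 1732 and 7040 bp in wild-type, 1211, 1727 and 3185 bp in mfn2-/- and 1991, 3248 and 2709 bp in vhl-/-. Other homeobox members were wide in fewer lists. Six6, a gene of eye development (chr12:72939528-72944027), reached 3037 bp in wild-type replicate 3, 3735 bp in vhl-/- replicate 2 and 3131 bp in vhl-/- replicate 3. Irx5 was wide in wild-type replicate 1 (3142 bp) and vhl-/- replicate 2 (3634 bp), and Alx1 in wild-type replicate 1 (4823 bp).

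The longest chain of wide regions lay at the 5′ end of the Hoxd cluster, whose genes pattern limb and trunk. There Evx2, Hoxd13, Hoxd11 and Hoxd10 held 6 wide regions within 45317 bp (chr2:74648064-74693380). In the first, at Evx2 (chr2:74648064-74655446), the longest peak was 2219, 4995 and 3075 bp in wild-type, 1610, 2732 and 2660 bp in mfn2-/- and 4670, 4177 and 2199 bp in vhl-/-. HIF1dPA lists had 0, 664 and 1075 bp, below all other values. The Hoxd10 region became a member through vhl-/- replicates 2 and 3 (3492 and 3907 bp), and the other lists there had 846, 1095 and 1566 bp in wild-type and 1831, 614 and 2218 bp in mfn2-/-. Of 21 Hox genes with a peak, 5 had a wide one, Hoxa13, Hoxc13, Hoxd10, Hoxd11 and Hoxd13, and all 5 did so in vhl-/-, 1 in wild-type and 1 in mfn2-/-, where all assigned genes gave 84, 47 and 35. Hoxc13 (chr15:102909186-102915359) was wide in 2 mfn2-/- lists (3648 and 3188 bp) and 2 vhl-/- lists (4040 and 3861 bp), with 1933, 2104 and 2599 bp in wild-type. The longest peaks of wild-type and mfn2-/- overlapped there only through the third mfn2-/- list, at 2587 bp. All pieces together covered 4895, 4760 and 4822 bp of the region in wild-type and 5197, 5604 and 4528 bp in mfn2-/- lists. The vhl-/- lists covered 5487, 4398 and 5405 bp, and by this measure the genotypes overlap.

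Wide regions lay near each other in other places as well. Within 20 kb of another wide region lay 61 of the 126, in 26 clusters, so that the regions formed 91 loci. The same share was not computed for all merged regions, so the count has no background. Neighbouring wide regions at a gene can be parts of a stretch that the caller divided, which was not tested. Clusters of 3 were found at Lin28b, at Nkx2-4, at Gata4, a zinc finger factor of heart and endoderm, at Zic5 and Zic2, zinc finger factors of the neural tube, and at Gm26553 and Platr30. By chromosome, the share of wide regions stood furthest above that of all merged autosomal regions on chromosomes 13 (10.3% against 5.14%), 14 (7.94% against 3.80%) and 10 (7.94% against 3.96%). It stood furthest below on chromosomes 7 (1.59% against 6.32%), 5 (3.17% against 7.25%) and 15 (0.794% against 3.70%), and chromosome 16 held 0 wide regions (against 2.67%).

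Among the remaining transcription factor families, 4 of 12 LIM homeobox genes with a peak had a wide one, 4 of 22 Fox genes, 7 of 28 zinc finger genes, 2 of 12 Sox genes, 2 of 10 T-box genes and 2 of 27 basic helix-loop-helix genes. Lhx1, a LIM homeobox gene of kidney and head development (chr11:84515746-84520649), was wide in all 3 vhl-/- lists, at 3148, 4285 and 3163 bp. Its wild-type peaks there were 1317, 2152 and 1366 bp and its mfn2-/- peaks 1057, 1478 and 1246 bp. The vhl-/- lists alone made it a member, so the order of these widths was set by the choice of members. Foxa1, a pioneer factor of endoderm (chr12:57537349-57542699), was likewise wide in all 3 vhl-/- lists, at 3060, 3084 and 4229 bp, with 2900, 1976 and 2415 bp in wild-type and 1496, 1818 and 3858 bp in mfn2-/-. Zic1 (chr9:91356669-91360968) was wide in wild-type replicate 1 (3357 bp) and vhl-/- replicates 1 and 3 (3471 and 3134 bp). Sim1, a basic helix-loop-helix factor of the hypothalamus that is outside the fixed lists (chr10:50893724-50902577), was wide in 6 lists, with 5238, 3361 and 1932 bp in wild-type, 1432, 1448 and 4802 bp in mfn2-/- and 4395, 3520 and 4174 bp in vhl-/-. Sp8, a zinc finger factor of limb outgrowth also outside the lists (chr12:118850122-118856936), was wide in all 3 vhl-/- lists, at 4013, 3605 and 3242 bp, and in 0 wild-type lists, at 1595, 1896 and 2330 bp, an order that the choice of members also favours.

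Over these 8 transcription factor lists, 47 of 220 genes with a peak had a wide one (21.4%), against the 2.03% of all assigned genes. A gene of these lists was assigned to, overlapped by or held its promoter in 63 of the 126 regions. The same share was not computed over all merged regions, and wide regions are longer, so this count has no background and shows no excess. By library, list genes took 41.9%, 43.8% and 27.8% of wild-type wide peaks, 17.6%, 36.4% and 36.8% of mfn2-/- wide peaks and 42.6%, 43.6% and 40.0% of vhl-/- wide peaks, against 17.6% to 25.5% of narrower peaks in those 9 lists. The wide share lay above the narrower share of its own list in each but mfn2-/- replicate 1 (17.6% against 24.6%), and none of the 5 HIF1dPA wide peaks fell on a list gene. None of 55 genes of secreted signalling families, none of 136 channel and receptor genes and none of 6 imprinted genes with a peak had a wide one. With 2.03% of all assigned genes wide, counts of 0 in lists of these sizes lie near the background.

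Myh8, which encodes neonatal myosin heavy chain, was the single myosin heavy chain gene with an autosomal H3K27me3 peak. Of the 19 regions wide in 4 or more lists, it was the only one wide in all 3 HIF1dPA lists and the only one wide in no vhl-/- list. Its wide region (ENSMUSG00000055775, chr11:67281518-67284995) lies inside the gene, beyond the promoter window printed above, and the authors class it as a promoter 1 to 2 kb from a start. The longest peak was 3476, 3354 and 3309 bp in wild-type, 2035, 3060 and 2906 bp for mfn2-/-, 1839, 1534 and 1527 bp for vhl-/- and 3211, 3068 and 3263 bp for HIF1dPA. In mfn2-/- replicate 1 the stretch lay in 2 pieces that covered 2998 bp, and every other list had 1 piece. All wild-type and HIF1dPA values passed 3 kb, 1 mfn2-/- value did and no vhl-/- value did. The score, 10 times the negative log10 of the peak p-value, was 3100 in each wild-type list, 1442 to 1468 in HIF1dPA, 402 to 511 in mfn2-/- and 138 to 251 in vhl-/- lists. The value 3100 is the highest in the 12 lists and no other peak reached it. Because 3 lists share it exactly, the caller may have capped it, so for wild-type it is read as a lower bound.

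Coil (chr11:88967492-88971360), like Myh8, was wide in HIF1dPA lists. Its longest peak was 2226, 3869 and 3470 bp in wild-type, 3442, 2120 and 3530 bp for mfn2-/-, 2218, 3709 and 3554 bp for vhl-/- and 3549, 2130 and 3485 bp for HIF1dPA. In each genotype 2 lists had 1 peak over 3 kb and the other list had the stretch in 2 pieces, so the genotypes cannot be ordered. The region overlaps no RefSeq gene. Coil is the gene the authors assigned, while the nearest RefSeq protein-coding gene is Elobl, at 561 bp.

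Other regions wide in 4 or more lists also lay at regulatory or non-coding genes. The region of Gm4895 (chr10:22150801-22158140) was wide in 5 lists, with 4878, 2088 and 2497 bp in wild-type, 4376, 3077 and 2488 bp in mfn2-/- and 3367, 5871 and 1868 bp in vhl-/-, and these overlap. Sox21, a neural repressor, and the region assigned to Mir148a were each wide in 1 wild-type, 1 mfn2-/- and 2 vhl-/- lists.

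Beside protein-coding genes, wide peaks lay over non-coding genes. A protein-coding gene overlapped 84 of the 126 wide regions (66.7%, against 46.8% of the other merged regions) and a long non-coding RNA gene 31 (24.6% against 15.4%). Wide regions are longer, and per Mb they touched fewer such genes, 127 against 209 protein-coding and 58.1 against 81.3 long non-coding. tRNA genes were present in 6 regions with 11 tRNA genes, or 19.98 per Mb, against 15 of 12979 other merged regions with 19 tRNA genes, or 1.41 per Mb. These 6 regions hold 19 wide peaks, and 5 of them overlap no protein-coding gene. Gm26553 (chr3:96337454-96345144), with a glutamine tRNA gene, was the most frequent. Its longest peaks were 3177, 5507 and 5080 bp in wild-type, 4346, 4876 and 3583 bp for mfn2-/-, 7691, 2918 and 3765 bp for vhl-/- and 0, 2204 and 1233 bp for HIF1dPA. Near-identical tRNA copies can share reads, so a peak there may mix copies, and the handling of such reads is not given in the sources used here.

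The C130071C03Rik region (chr13:83734737-83743892) holds the precursor of miR-9, a neural microRNA. It was wide in wild-type replicates 1 and 3 (3814 and 3093 bp) and vhl-/- replicates 1 and 2 (3707 and 4063 bp), with longest peaks of 1343, 2311 and 1822 bp in mfn2-/- lists. All pieces together covered 6758, 5844 and 6744 bp of it in mfn2-/- and 6589, 5492 and 5553 bp in wild-type lists. The mature sequences are printed because they are the only microRNAs annotated inside a wide region, with the seed (bases 2 to 8) in capitals and U for uracil.
mmu-miR-9-5p (chr13:83738821-83738843, plus strand): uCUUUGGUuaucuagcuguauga
mmu-miR-9-3p (chr13:83738858-83738879, plus strand): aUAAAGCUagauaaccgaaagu
mmu-miR-9b-3p (chr13:83738821-83738841, minus strand): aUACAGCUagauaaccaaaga
The 3 seeds differ, and the third microRNA is read from the opposite strand.

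Wide peaks carried the authors' promoter class, which reaches 3 kb from a start, more often than narrower peaks, but this rests on how a promoter is defined. The wild-type shares were 64.5%, 68.8% and 61.1%, those of mfn2-/- 64.7%, 54.5% and 63.2%, those of vhl-/- 68.1%, 67.3% and 62.9%, and each HIF1dPA list had 100% of its 1 or 2 wide peaks in the class. Narrower peaks had 48.4% to 49.8% in wild-type, 51.8% to 52.6% for mfn2-/-, 50.5% to 52.7% for vhl-/- and 36.8% to 42.1% for HIF1dPA lists. The difference was positive in 12 of 12 libraries, with a mean of 25.1 and a median of 15.1 percentage points (exact two-sided sign-flip permutation p = 0.000488, the smallest possible, adjusted p = 0.00122). A longer interval reaches more start sites, and with the midpoint within 3 kb of a RefSeq start as the definition the difference was 4.89 points (exact sign-flip permutation p = 0.262). Past 4 kb it was 2.07 points (exact p = 0.789 by the same permutation, HIF1dPA then having no wide peak).

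By class, 121 of the 254 wide peaks (47.6%) lay within 1 kb of a start, 26 at 1 to 2 kb and 20 at 2 to 3 kb, with 60 (23.6%) distal intergenic, 19 (7.48%) in a 3′ UTR and 6 (2.36%) in an intron. Narrower peaks had 28.4% within 1 kb, 31.4% distal intergenic, 2.08% in a 3′ UTR and 13.7% in an intron. Across genotypes the share of wide peaks in the authors' promoter class differed (exact permutation p = 0.00636, adjusted p = 0.00795). The HIF1dPA mean of 100% and the mfn2-/- mean of 60.8% lay 39.2 points apart. The call was lost with promoters up to 1 kb (15.1 points, exact permutation p = 0.874). It was also lost with the RefSeq start definition (11.1 points, exact permutation p = 0.895). Without the HIF1dPA libraries, whose shares rest on 5 peaks at Myh8 and Coil, the means lay within 5.27 points (exact permutation p = 0.350). Wild-type (64.8% ± 3.83, n = 3) and the 9 mutant libraries differed by 10.8 points with the mutants higher (exact two-sided permutation p = 0.359, adjusted p = 0.359), and by -1.36 points without HIF1dPA.

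Wide regions of wild-type myofibers were next looked up in the mutants, whose lists had no part in choosing them. The 49 wild-type wide regions were found, by midpoint inside a peak of any width, in 63.3%, 57.1% and 65.3% of cases in the mfn2-/- lists, in 87.8%, 83.7% and 75.5% in the vhl-/- lists and in 10.2%, 6.12% and 12.2% in the HIF1dPA lists. The 3 genotypes do not overlap. Their means, 61.9% ± 4.25, 82.3% ± 6.23 and 9.52% ± 3.12 (SD, n = 3 each), differed by exact permutation over the 9 libraries (p = 0.00357, the smallest possible, adjusted p = 0.00595). In pairs, vhl-/- stood 20.4 points above mfn2-/-, and HIF1dPA -72.8 points from vhl-/- and -52.4 points from mfn2-/-, each at exact permutation p = 0.1, the smallest that 3 against 3 libraries allow. List length has the same order as the share found, and their parts cannot be told apart from these lists. With the 474 strongest peaks of each library, the genotype means still spanned 53.5 points (exact permutation p = 0.00714).

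Measured in bases, the 49 regions were covered by peaks over 84.3%, 67.7% and 72.6% of their 195976 bp in the wild-type lists, which chose them. The mfn2-/- lists covered 62.6%, 56.1% and 62.5%, the vhl-/- lists 74.0%, 71.5% and 67.8% and the HIF1dPA lists 12.2%, 13.6% and 10.5%. Coverage in vhl-/- overlapped that in wild-type, and that in mfn2-/- lay below every wild-type value.

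**Figure D5:**
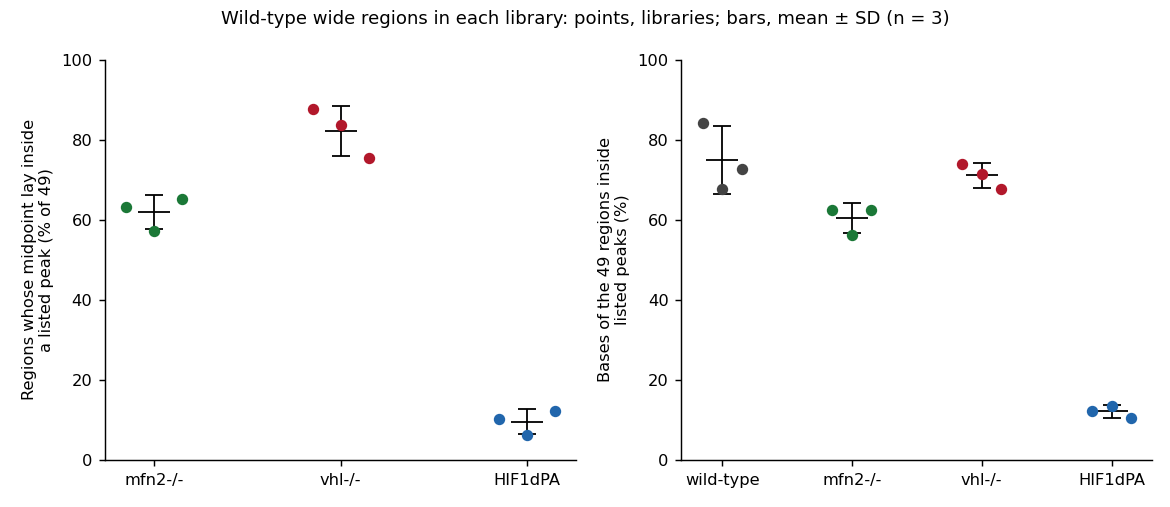
Left, percent of the 49 wild-type wide regions whose midpoint lay inside a peak of each mutant library. Right, percent of the bases of these regions under peaks in each library of all 4 genotypes. Points are libraries and bars the mean ± SD of 3, and HIF1dPA points lie between 6.12% and 13.6%.

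Few wide regions separated wild-type from mfn2-/- or vhl-/- by the presence of a peak. Listed by all 3 wild-type libraries and no mfn2-/- library were 0 of 126 wide regions, against 0.686% of all autosomal regions of that pair. The reverse was found in 1 (0.794%), against 0.264%. For vhl-/- the counts were 0 (all regions 0.299%) and 2 (1.59%, all regions 0.597%). Counts of 1 and 2 are too low to compare with the shares over all regions. BC107364 (chr3:96451230-96454527), a region with 2 tRNA genes, had no wild-type peak but peaks of 3298, 1755 and 982 bp in mfn2-/- and 1563, 1887 and 2215 bp in vhl-/-. Nkx2-3, a homeobox gene of gut and spleen (chr19:43616970-43620238), had no wild-type peak and 1283, 3269 and 896 bp in vhl-/-. HIF1dPA lists lacked a peak in 34 wide regions (26.98%) that all 3 wild-type lists held, against 4.59% of all regions of that pair, and the reverse was found in 0 wide regions, against 0.0% of all regions.

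Wide regions were, however, mostly held by all wild-type lists in the first place, 108 of 126, against 6.42%, 5.71% and 7.55% of all regions of the mfn2-/-, vhl-/- and HIF1dPA pairs. Of the 108 wide regions with a peak in all 3 wild-type lists, 31.5% lacked one in every HIF1dPA list, against 60.8% of the 617 regions of any width that all 3 wild-type lists held. For mfn2-/- the shares were 0 of 108 against 10.7% of 608, and for vhl-/- 0 of 108 against 5.23% of 631. A peak anywhere in a region counted, and a longer region is touched more easily. The 126 wide regions span 0.551 Mb, and the 12979 merged regions without a wide peak span 13.5 Mb. Wild-type lists also took part in choosing 49 of the 126. These shares therefore do not separate the wide regions from their length and choice. Among the 34 regions without a HIF1dPA peak, the 5 with the highest mean width of their wide peaks were assigned to Alx1, Gm36079, Foxi3, Hmx3 and Abt1.

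The second repressive mark, H3K9me3, was rare at wide and narrower H3K27me3 peaks. None of the 254 wide peaks had its midpoint inside an H3K9me3 peak of its genotype (0 of 65, 0 of 47, 0 of 137 and 0 of 5). Narrower peaks had 0.369% in wild-type, 0.642% for mfn2-/-, 0.334% for vhl-/- and 2.81% for HIF1dPA lists. With shares this low among narrower peaks, a difference was not detectable at these numbers of wide peaks. An H3K9me3 peak of any library touched 5 of the 126 wide regions, that of Gm36079 in 2 wild-type lists and 1 mfn2-/- list, that of Trpm8 in 1 wild-type list, and those of Nkx2-4, Lin28b and Tchh in 1 HIF1dPA list each.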

How the data were processed

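The authors deposited 1 peak list per ChIP library, so replicates were not pooled before peak calling. Per the file headers, each row holds an interval, a gene, a feature class and a score, deposited as 10 times the negative log10 of the p-value of the peak. H3K27me3 scores ran from 50 to 3100, so these lists stop at a p of 1e-05. The submitters' processing notes name BWA 0.7.5, MACS, deepTools 3.5.0 and mm10. Caller settings, duplicate handling and the use of the wild-type input, which was not used here, are not given in the sources used here. Depth is unknown, and no counting interval was computed.

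Width was end - start + 1. Wide rows overlapping by at least 1 bp were merged into regions, named by the gene the authors assigned. Libraries were grouped by genotype from their titles. Mean ± SD is over 3 libraries. Tests were exact and two-sided permutations over libraries (4 genotypes, 3 against 9, 3 mutant genotypes) or sign flips of within-library differences, adjusted by Benjamini-Hochberg over 5 tests. A region separated a pair of genotypes when all 3 lists of one and none of the other had a peak in it. Genes named were the 20 regions wide in most lists, the 3 widest peaks of each genotype, members of gene lists by symbol, regions separating genotypes and the 3 peaks on either side of the limit, and 1 recurrent region is not reported here. The members and lists were chosen with earlier results of these data known.

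RefSeq gene and promoter tables of GRCm38.p6 gave overlaps and sequences. Of peaks the authors class within 1 kb of a start, 67.8% had a midpoint within 3 kb of a RefSeq start, against 6.70% of distal intergenic peaks. No genome was used, so peak sequences were not read. Rows on chromosomes X and Y were left out of the members. The scripts were tested on simulated data. The scripts ran on Python 3.11.15 with pandas 2.3.3, numpy 2.4.6 and, for figures, matplotlib 3.10.9.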

Additional observations from a re-analysis of the deposited data

Results flagged for a closer look

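The share of the 49 wild-type wide regions found in the mutant lists differed between the mutant genotypes by a test of that difference, with 72.8 percentage points between the vhl-/- and HIF1dPA means (exact permutation p = 0.00357). Without the HIF1dPA libraries it was 20.4 points, at the smallest exact permutation p that 3 against 3 libraries allow, 0.1.

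Outside the autosomes, rows of 3 kb or more were present in mutant lists and absent from wild-type lists. On the X chromosome there were 6, all assigned to Gm371 and all in mfn2-/- lists, with 2, 3 and 1 in replicates 1 to 3. The longest spanned 23103 bp, which exceeds the widest autosomal peak, 10414 bp. On the Y chromosome there were 2, both assigned to Gm47283, of 7152 bp in HIF1dPA replicate 1 and 7688 bp in HIF1dPA replicate 2. With 3 libraries per genotype, no group was large enough for a test of single outlying libraries.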

How the results depend on the processing

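Wide peaks are defined by a caller-dependent width, each genotype has 3 lists, and depth is unknown, so the numbers below show what the threshold and the caller decide. In the alternatives other than leaving out single libraries, 69 values kept direction and side of the threshold, or moved by less than 1 SD or 1.5 times, 38 moved, 8 lost the call and 2 with a test reversed. Of the 38 that moved, 4 values of the untested share changed sign, the mfn2-/- share 3 times and the HIF1dPA share once.

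At 2 kb the shares were -0.375 (mfn2-/-), 1.83 (vhl-/-) and -2.60 (HIF1dPA) points from wild-type and the HIF1dPA ratio 0.0328. The promoter share across genotypes then spanned 23.7 points (exact permutation p = 0.110). Regions in all wild-type and no mutant lists numbered 16, 3 and 172 for mfn2-/-, vhl-/- and HIF1dPA, and the reverse 4 for mfn2-/- and 7 for vhl-/-. At 4 kb the vhl-/- share stood 0.213 points above wild-type, the HIF1dPA ratio was 0, the wide to narrower promoter difference 2.07 points, the wild-type regions without HIF1dPA peak 6 and those of mfn2-/- and vhl-/- without wild-type peak 0 and 0. The promoter comparison of 4 genotypes could not be run there, since no HIF1dPA peak is left. A score of at least 100 gave shares of -0.135, 2.03 and 3.23 points from wild-type, so mfn2-/- and HIF1dPA changed direction. That HIF1dPA share rests on the Myh8 peak of each list and the Coil peak of replicate 3. Joining peaks within 1 kb gave shares of 0.967, 2.56 and -5.20 points, ratios of 1.50 (vhl-/-) and 0.0175 (HIF1dPA), 8 and 148 wild-type regions without mfn2-/- and HIF1dPA peaks, and 3 and 6 regions of mfn2-/- and vhl-/- without wild-type peak. With the 474 strongest peaks per list the shares were -1.34, 4.85 and -4.15 points from wild-type, and 1 and 14 wild-type regions had no vhl-/- and HIF1dPA peak, with 0 vhl-/- regions without wild-type peak. Taking the widest 5% of each list, the promoter share spanned 3.70 points (exact permutation p = 0.697), wild-type regions without mutant peaks numbered 16, 7 and 197, and the reverse 4 and 7 for mfn2-/- and vhl-/-. When 50% or more of a region had to be covered, 2 wild-type regions had no mfn2-/- peak.

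With promoters up to 1 kb, the 4 genotypes spanned 15.1 points (exact permutation p = 0.874) and wild-type against mutants reversed to -5.83 points. Chosen after seeing the data, leaving out HIF1dPA gave 5.27 points, reversed wild-type against mutants to -1.36 points, and brought the wild-type regions found to 20.4 points (exact permutation p = 0.1, the smallest possible). Also chosen after seeing the data, the RefSeq start definition, without chromosome 18, gave 11.1 points across genotypes (exact permutation p = 0.895). For wide against narrower peaks it gave 4.89 points (exact sign-flip permutation p = 0.262). The cause of these changes was not tested. Midpoint recurrence stayed between 34.8 and 68.2 points in 8 alternatives, at exact sign-flip permutation p-values of 0.000488 to 0.00391.

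Leaving out each library in turn gave ratios of 0.639 to 0.922 (mfn2-/-), 1.86 to 2.69 (vhl-/-) and 0.0680 to 0.0980 (HIF1dPA), and 0 to 2 wild-type regions without mfn2-/- peak, 1 to 2 the reverse and 1 to 3 vhl-/- regions without wild-type peak. No test changed its side of 0.05 when a library was left out. The replicate numbers of different genotypes are not said to share an animal, and same-numbered lists deviated with mean correlations of 0.0388 (number), -0.105 (promoter share) and 0.0255 (regions found). With the replicate block the differences stayed at 39.2 points for the promoter share of 4 genotypes (exact permutation p = 0.0365), 10.8 points for wild-type against mutants (exact p = 0.344) and 72.8 points for the regions found (exact p = 0.0278), and no call changed.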

Other observations

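Of the 6 wide regions with a tRNA gene, on chromosomes 3 and 13, 3 (Gm26553, Pom121l2 and Abt1) were wide in 4 or more lists, 3 (Platr30, 4930586N03Rik and BC107364) in 1 list, and none in a HIF1dPA list. Pom121l2 (chr13:21993114-21997390), with 2 tRNA genes, was wide in 1 wild-type list (3214 bp), 1 mfn2-/- list (3669 bp) and 2 vhl-/- lists (3794 and 3536 bp). Abt1 (chr13:23409640-23413788), with 3 tRNA genes, was wide in 1 wild-type list (3536 bp), 1 mfn2-/- list (3169 bp) and 2 vhl-/- lists (4047 and 4032 bp), and no HIF1dPA list had a peak there. Its scores, 71.9 to 146 across the lists that had a peak, were low for wide peaks. By library, 3, 1 and 2 of the wild-type wide peaks, 3, 1 and 2 of the mfn2-/- wide peaks, 2, 2 and 3 of the vhl-/- wide peaks and none of the HIF1dPA wide peaks fell in a region with a tRNA gene.

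Lists of markers of other cell types are short, and with 2.03% of all assigned genes wide a count of 0 in them lies near the background. None of 5 muscle stem cell and myoblast markers had one, although 3 (Pax7, Myf5 and Pax3) had a narrower peak, and the endothelial, immune and fibro-adipogenic lists also had none. Of 6 Schwann and neural markers, Neurog2 had one, of 3056 bp in wild-type replicate 1 and 3018 bp in mfn2-/- replicate 1.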
